A study of Mus musculus with 22 samples.

Results

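The response of colonic mucosa to 7 days of dextran sodium sulfate (DSS) was examined in VC+ mice, whose intestinal epithelial cells lack PPAR γ. It was read as the difference between the 4 arrays of VC+ mice at day 7 and the 3 arrays of VC+ mice at day 0, which received no DSS, out of 22 arrays in the series, and it was followed across 18194 genes. VC+ mice carry PPAR γ fl/fl alleles and a Cre recombinase driven by the Villin promoter, which acts in the epithelium of the intestine and not in immune cells or stroma. VC- mice carry the same fl/fl alleles without Cre, and their 4 arrays at day 7 and 3 arrays at day 0 were used for comparison, as were the 5 VC+ arrays at day 2. DSS was given at 2.5% in drinking water, and the mice were taken to have a mixed FVB/C57BL/6 background. The paper also used C57BL/6 mice, and its account of the arrays does not name the background. RNA came from homogenized tissue, not from isolated epithelial cells, so in every result below fewer cells of a type and less RNA per cell cannot be told apart. Neither the age of the mice nor the animal behind an array is given in the labels, so that p-values measure the spread between these samples, which may be technical.

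DSS damages the epithelial lining of the colon, which lets bacteria reach the mucosa and brings in neutrophils and monocytes. The injured tissue is known for the release of chemokines that attract neutrophils, of cytokines such as IL-1 and IL-6, of acute phase proteins, and of metalloproteinases that cut the matrix. PPAR γ is a nuclear receptor that binds fatty acids and their derivatives, pairs with a retinoid X receptor on DNA and turns on genes of lipid handling, and it is known to restrain inflammatory genes in several cell types.

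Each value is a log2 signal from GC-RMA, which corrects the background of the probes and puts all arrays on 1 scale, so a difference of 1 is a doubling of signal. Array medians ran from 3.41 to 3.55, and 41.7% of all values lay under 3, where probe sets with little or no transcript sit. Colonocyte and goblet cell markers were abundant on all arrays compared. The summed signal of 37 colonocyte genes was 17.21 to 17.95 at day 7 and 17.97 to 18.13 at day 0, and that of 24 goblet cell genes was 17.05 to 17.79 at day 7 and 17.58 to 18.60 at day 0. The tissue also held other cells, since 23 smooth muscle markers summed to 15.08 to 16.36 at day 7 and 15.95 to 16.41 at day 0. All 4 red blood cell markers were under 4 on all 7 arrays.

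Some arrays stood apart before any comparison was made. The trypsinogen gene Prss2, made by the exocrine pancreas, gave 11.20 on VC+ day 7 replicate 4, against 3.66 to 3.89 on replicates 1, 2 and 3 and 3.62 to 3.80 at day 0. The summed signal of 15 exocrine pancreas markers was 15.09, 15.14, 15.75 and 15.45 on the day 7 arrays. It was 15.69, 15.12 and 15.02 on the day 0 arrays. These totals lie far above the Prss2 signal, so they cannot show whether replicate 4 held more pancreas RNA. Of that list 4 markers were tested. Their mean difference from each gene's mean over all arrays was -2.39, -1.97, -1.82 and -0.14 at day 7. At day 0 it was 2.26, -0.79 and -0.56. Replicate 4 was thus the highest day 7 array, but within the range of the day 0 arrays. Hoxb13, a homeobox gene of the most distal gut, gave 3.10, 3.31, 3.07 and 6.88 on the day 7 arrays and 12.42, 3.09 and 2.88 on the day 0 arrays. The bile acid binding protein Fabp6 of the ileum and proximal colon ran the other way at day 0, with 7.61, 6.98, 11.20 and 4.43 at day 7 and 6.64, 13.52 and 14.57 at day 0. Xist, the RNA of the inactive X chromosome, gave 11.52 on VC+ day 0 replicate 3 and 2.06 to 2.08 on the other 6 arrays. The part that these differences have in the results below was not tested beyond fits that dropped such arrays and 1 with Hoxb13 as a covariate, which called 167 genes. Pparg itself gave 10.35, 10.08, 8.54 and 6.26 at day 7 and 8.62, 8.50 and 8.83 at day 0 in VC+ arrays, against 9.58 to 9.63 in the 3 VC- arrays at day 0. Where its probe set lies relative to the deleted part of the gene is not given in the sources used here, so it does not check the deletion.

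Of 9097 genes tested, 159 passed an adjusted p of 0.05 in limma at day 7 against day 0 in VC+ arrays, which is 1.75% of the genes. The 120 that rose make up 1.32% and the 39 that fell make up 0.429%. The rises were the larger changes, their log2 fold changes running from 0.94 to 9.31 with a median of 2.79. The falls had a median of -1.44 and reached -4.03. Over all genes tested the median was -0.02, and 1250 genes had an unadjusted p under 0.05. The day 7 and day 0 arrays did not overlap for 119 of the 120 rises and 38 of the 39 falls, against 18.2% of all genes tested. In 31 of the 120 rises all 3 day 0 arrays were under 4, as in 449 of 9097 genes tested, near the background of these arrays. For those genes the day 0 value may not measure transcript, so the size of the difference is uncertain, and the order of such genes by size is not measured.

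The day 7 group was uneven. Replicate 4 had the highest day 7 signal in 101 of the 120 rises and the lowest in 26 of the 39 falls. Its median difference from the day 0 mean over the rises was 3.91, against 2.31, 2.20 and 2.47 on replicates 1, 2 and 3. The count of 159 fell to 55 without that array, and to 83, 61 and 53 without day 0 replicates 1, 2 and 3. It was 353 without VC- day 7 replicate 2, an array that enters only through the shared estimate of the spread. Without all 3 arrays of the series with Prss2 signal the count was 190. Without the day 0 and day 7 arrays with Hoxb13 signal above 5, a setting chosen after seeing the data, it was 30, and without the 6 arrays with Xist signal it was 2, each with fewer arrays in the fit. A core of 38 rises and 3 falls was called in all 7 fits that each left out 1 of the compared arrays. Among the 24 genes with the largest changes, the day 7 and day 0 arrays were separate in every one, as the rule that chose them required.

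**Figure D1:**
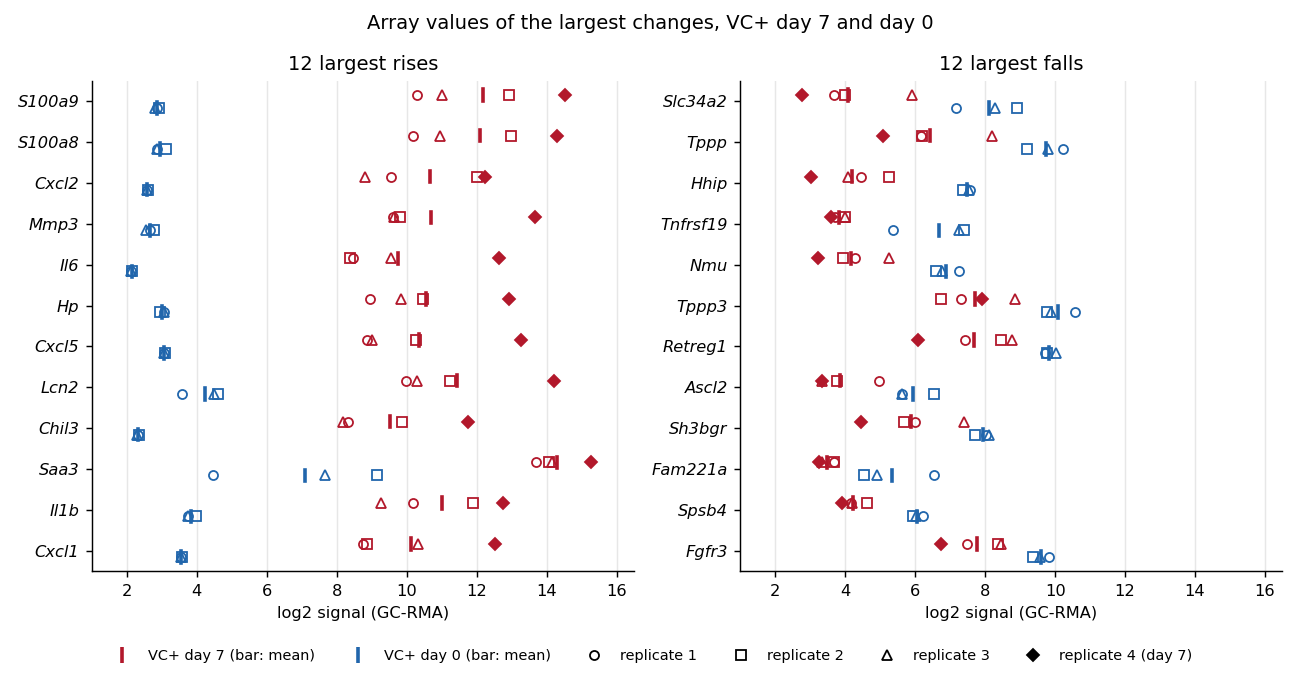
The 12 largest rises and the 12 largest falls among the called genes whose VC+ day 7 and day 0 arrays did not overlap. Each symbol is 1 array on the log2 signal axis, red for day 7 and blue for day 0, with a bar at the group mean. Replicate 4 of day 7, the filled diamond, is the highest array in all 12 rises and lies at 14.52 for S100a9.

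Neutrophil genes had the highest fitted log2 fold changes. S100a9 and S100a8 encode the subunits of calprotectin, the main cytosolic protein of neutrophils. S100a9 gave 10.29, 12.92, 11.002 and 14.52 on the day 7 arrays, against 2.87, 2.92 and 2.81 on the day 0 arrays, and rose by 9.31 ± 1.13 (SE) on the log2 scale, with an adjusted p of 0.000242. S100a8 gave 10.19, 12.98, 10.94 and 14.29 at day 7 and 2.86, 3.11 and 2.87 at day 0, a rise of 9.16 ± 1.13 with an adjusted p of 0.000242. Both were at background on the 3 day 0 arrays and bright on every day 7 array, with replicates 2 and 4 above replicates 1 and 3. Fpr2, a receptor for formylated bacterial peptides, gave 7.33, 8.53, 5.58 and 10.88 at day 7 and 2.32, 2.38 and 2.36 at day 0 (log2 fold change 5.73, adjusted p 0.00422). Clec4d, a C-type lectin receptor of myeloid cells, rose by 4.45 with an adjusted p of 0.0404, a call lost without any of 6 of the 7 arrays. Of 7 neutrophil markers tested 4 rose and none fell, all 7 had separate groups, and the median was 4.45. Of the 19 markers with a probe set, 8 were under 4 on all 7 arrays, among them the granule genes Mpo, Elane, Prtn3, Camp and Ltf. The summed signal of the 19 ran from 11.45 to 15.58 at day 7 and 7.38 to 7.46 at day 0.

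Chemokines that draw neutrophils were the next group. Cxcl2 gave 9.55, 12.02, 8.81 and 12.24 at day 7 and 2.57, 2.61 and 2.57 at day 0, a rise of 8.07 ± 1.11 with an adjusted p of 0.000659. Cxcl5 gave 8.86, 10.28, 8.996 and 13.26 at day 7 and 3.07, 3.09 and 3.05 at day 0, a rise of 7.28 ± 1.33 with an adjusted p of 0.00722. Cxcl1 gave 8.75, 8.87, 10.32 and 12.54 at day 7 and 3.55, 3.56 and 3.55 at day 0, a rise of 6.57 ± 0.90 with an adjusted p of 0.000659, and its 3 probe sets had the same sign. All 3 encode ligands of the receptor CXCR2, all 3 were at background at day 0, and all 3 stayed called without each of the 7 arrays. Csf2rb, the shared chain of the receptors for GM-CSF, IL-3 and IL-5, rose by 3.26 (adjusted p 0.0404) and was called in 1 of those 7 fits. Together 4 of 8 genes of neutrophil chemokines, colony stimulating factors and their receptors rose, with a median of 3.75. Among 19 other chemokines 2 rose, with a median of 1.44, and the count was 5 without day 7 replicate 3 and 1 without day 7 replicate 4 or day 0 replicate 3. Ccl2, which draws monocytes, gave 7.88, 6.55, 8.60 and 11.02 at day 7 and 3.22, 3.32 and 3.22 at day 0 (log2 fold change 5.26, adjusted p 0.00427). Ccl8, another monocyte chemokine, was already bright at day 0, with 11.34, 10.68, 11.30 and 12.04 at day 7 and 8.64, 9.19 and 8.12 at day 0 (log2 fold change 2.69, adjusted p 0.0109). Cxcl9 and Cxcl10, interferon-induced ligands of CXCR3, had log2 fold changes of 3.24 and 3.21 and were not called.

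Macrophage and monocyte markers made up the largest group of called genes. Of 27 tested 13 rose and none fell, 24 had day 7 arrays above all day 0 arrays, and the median was 2.30. Arrays that did not overlap, in either direction, were found for 18.2% of all genes tested. Fcgr4, a receptor for IgG, gave 7.31, 7.71, 5.58 and 10.07 at day 7 and 2.32, 2.86 and 2.41 at day 0, a rise of 5.14 ± 0.73 with an adjusted p of 0.000856. The other Fc receptor genes Fcgr1, Fcgr2b, Fcgr3 and Fcer1g rose by 2.85, 2.67, 2.48 and 2.88. Chil3, a chitinase-like protein secreted by macrophages and neutrophils, gave 8.32, 9.88, 8.18 and 11.76 at day 7 and 2.32, 2.34 and 2.29 at day 0, a rise of 7.21 with an adjusted p of 0.0219 that was lost without day 7 replicate 4 or any day 0 array. Clec7a, the β-glucan receptor dectin-1, and Cd68, a glycoprotein of macrophage endosomes, rose by 3.15 (adjusted p 0.0334) and 2.90 (adjusted p 0.0404), and each was called in 2 of the 7 fits without 1 array. Adgre1, Csf1r and Mertk, known from resident macrophages and picked after their values were seen, were not called. They had log2 fold changes of 0.74, 1.13 and -0.26, and that of Mertk was the only 1 of the 27 values below 0. Whether resident and recruited macrophages differed was not tested. The summed signal of 32 macrophage and monocyte markers was 13.96 to 15.59 at day 7 and 12.72 to 12.98 at day 0. The part of neutrophil and macrophage number in the other rises was not tested. Fcgr4, Fcgr1, Fcer1g and Msr1, the last a scavenger receptor, kept their calls without each of the 7 arrays. Without day 7 replicate 4 the count for the list was 4, and it was 5, 6 and 4 without day 0 replicates 1, 2 and 3.

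Cytokine genes of the IL-1 and IL-6 families rose. Il6 gave 8.47, 8.39, 9.55 and 12.65 at day 7 and 2.12, 2.15 and 2.12 at day 0, a rise of 7.63 ± 0.95 with an adjusted p of 0.000242. Since its day 0 arrays were at background, the size of that difference too is uncertain. Il1b gave 10.19, 11.91, 9.26 and 12.74 at day 7 and 3.74, 3.97 and 3.75 at day 0, a rise of 7.20 ± 0.95 with an adjusted p of 0.00052. Socs3, a feedback inhibitor that cytokines of the IL-6 family induce, gave 7.75, 8.03, 7.81 and 9.04 at day 7 and 2.10, 2.11 and 2.10 at day 0. Its rise of 6.06 ± 0.60 (adjusted p 4.39e-05) varied little among the day 7 arrays, and Socs3 is the 1 named gene that was called under every alternative setting. Il11, an IL-6 family cytokine made by stromal cells, gave 5.90, 4.70, 8.07 and 11.71 at day 7 and 3.23, 3.22 and 3.17 at day 0 (log2 fold change 4.39, adjusted p 0.0317) and lost its call without day 7 replicate 3 or any day 0 array. Il1rn, the natural antagonist of IL-1, Il33, an alarmin of the IL-1 family, and Osmr, the oncostatin M receptor, rose by 3.36, 2.92 and 2.24. Of 25 cytokine and inflammasome genes 8 rose and none fell, with a median of 1.08. The count was 4 without day 7 replicate 4, and 4, 3 and 4 without day 0 replicates 1, 2 and 3. The inflammasome genes Casp1 and Pycard were among those not called, with log2 fold changes of -0.03 for Casp1 and -0.01 for Pycard. Tnf did not pass the filter on variance and was not tested; it gave 2.51, 4.89, 2.38 and 4.60 at day 7 and 2.34, 2.12 and 2.32 at day 0. Irak1, a kinase of IL-1 and Toll-like receptor signaling, gave 8.997, 8.82, 8.64 and 9.16 at day 7 and 8.84, 8.47 and 8.48 at day 0 (log2 fold change 0.31, adjusted p 0.523), and its groups overlapped. In the Toll-like receptor list 3 of 14 genes rose, namely the lipopolysaccharide carrier Lbp (2.88, adjusted p 0.028), its partner Cd14 (2.31, adjusted p 0.0485) and Tlr13 (3.19, adjusted p 0.0354), which in mice detects bacterial ribosomal RNA. These calls depended on single arrays. The count was 0 without day 7 replicate 4 and without day 0 replicate 2 or 3, and 1 without day 7 replicate 2 or day 0 replicate 1.

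Among acute phase and antimicrobial proteins the genes Lcn2, Saa3 and Hp rose most. Lcn2, which withholds iron from bacteria by binding their siderophores, gave 9.98, 11.25, 10.31 and 14.21 at day 7 and 3.56, 4.61 and 4.49 at day 0, a rise of 7.21 ± 1.06 with an adjusted p of 0.0011. Saa3, a serum amyloid A protein, gave 13.70, 14.06, 14.15 and 15.26 at day 7 and 4.47, 9.14 and 7.66 at day 0, a rise of 7.20 ± 1.05 with an adjusted p of 0.0011. At day 7 Saa3 was among the brightest of these signals and varied little, while its day 0 arrays were spread over several log2 units. Hp, haptoglobin, which binds free hemoglobin, gave 8.94, 10.47, 9.83 and 12.92 at day 7 and 3.05, 2.93 and 3.05 at day 0, a rise of 7.53 ± 1.31 with an adjusted p of 0.0047. Of 21 genes tested 5 rose and none fell, with a median of 1.93 and 17 values above 0. The count was 3 without day 7 replicate 4, and likewise without day 0 replicate 2 or 3. The bactericidal lectin gene Reg3g had a log2 fold change of 6.03 with an adjusted p of 0.228 and separate groups. Of the 4 values below 0 the lowest was that of Ang4, an antimicrobial ribonuclease of goblet and Paneth cells, with 6.98, 3.82, 3.02 and 2.40 at day 7 and 14.67, 10.72 and 10.98 at day 0. Its log2 fold change of -8.07 had an SE of 2.38 and an adjusted p of 0.109. Besides the list, Lrg1, a leucine-rich plasma glycoprotein of the acute phase, and Ptx3, a soluble pattern recognition protein, rose by 6.39 (adjusted p 0.000648) and 4.95 (adjusted p 0.00628), 2 genes picked after their values were seen.

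**Figure D2:**
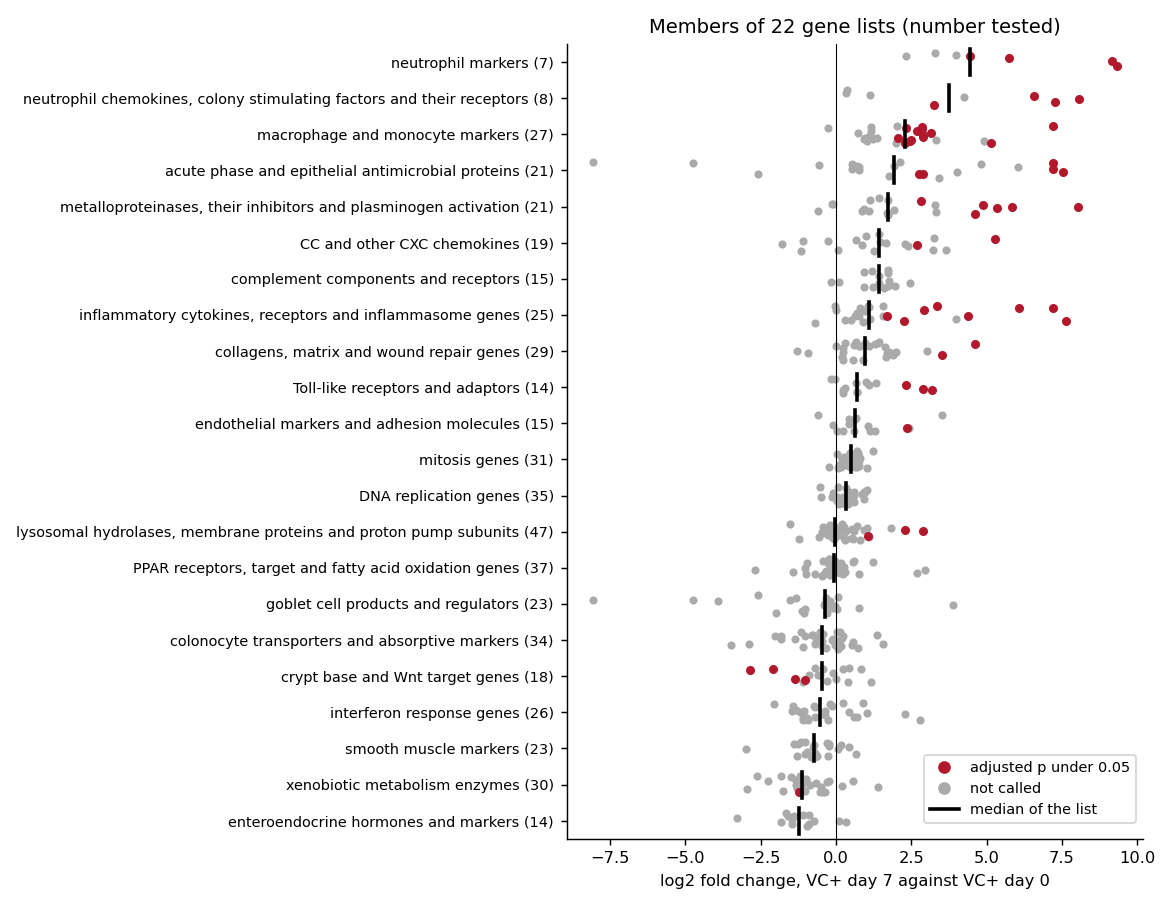
Log2 fold changes of VC+ day 7 against VC+ day 0 (horizontal axis) for the tested members of 22 gene lists, ordered by median. Each point is 1 gene, red where its adjusted p is under 0.05 and grey otherwise, and the black bar is the median of the list. The neutrophil list has the highest median, 4.45, and the enteroendocrine list the lowest, -1.24. Only 7 of the 19 neutrophil markers were tested, kept by their spread over the 22 arrays, so its rank is a description only.

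Genes that degrade and remodel the matrix rose with large values. Mmp3, the metalloproteinase stromelysin-1, gave 9.62, 9.80, 9.64 and 13.68 at day 7 and 2.66, 2.76 and 2.54 at day 0, a rise of 8.03 ± 0.98 with an adjusted p of 0.000242. Mmp10, stromelysin-2, gave 7.05, 6.85, 8.08 and 11.23 at day 7 and 2.44, 2.46 and 2.45 at day 0, a rise of 5.85 ± 1.09 with an adjusted p of 0.0075. Mmp13, a collagenase, gave 10.49, 10.50, 10.40 and 14.45 at day 7 and 5.02, 7.65 and 5.67 at day 0, a rise of 5.34 ± 1.18 with an adjusted p of 0.0236. In each of these 3 genes replicate 4 was the highest day 7 array by more than 3 log2 units, and the Mmp13 call was lost without it, without day 0 replicate 1 and without day 0 replicate 3. Adamts4, an aggrecanase, gave 7.24, 6.38, 9.44 and 8.63 at day 7 and 2.86, 3.27 and 3.01 at day 0 (log2 fold change 4.88, adjusted p 0.0074), with replicate 3 the highest. Timp1, an inhibitor of metalloproteinases, rose by 4.62 with an adjusted p of 0.000821, its day 7 arrays at 6.34 to 9.02 and its day 0 arrays at 2.78 to 2.81. Of 21 proteinases, inhibitors and plasminogen activation genes 6 rose and none fell, with a median of 1.72. Of 29 matrix and wound repair genes 2 rose, Timp1 again and Col18a1, the basement membrane collagen that contains endostatin (3.52, adjusted p 0.00572). The fibrillar collagens Col1a1 and Col3a1 had log2 fold changes of 1.41 and 0.80 and were not called.

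The 250 bases before the start of 6 of these genes are printed because Cxcl1, Cxcl2 and Il6 are the largest rises with a match to an NF-kB motif and the other 3 are the metalloproteinase rises with a match to an AP-1 motif. They come from RefSeq on build GRCm38.p6. The first 3 show matches to short forms of the NF-kB motif, GGANTTTCC and GGAATNTCC, where N is any base, in capitals. In Il6 and in the metalloproteinases a match to TGAGTCA, the AP-1 motif, is in capitals. Both strands were searched, and the NF-kB forms overlap where both match.
Cxcl1, chr5:90890995-90891244, + strand: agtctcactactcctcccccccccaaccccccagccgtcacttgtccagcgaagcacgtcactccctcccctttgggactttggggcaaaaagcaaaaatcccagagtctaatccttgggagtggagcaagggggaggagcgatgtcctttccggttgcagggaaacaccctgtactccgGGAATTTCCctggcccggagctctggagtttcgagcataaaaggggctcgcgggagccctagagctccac
Cxcl2, chr5:90903649-90903898, + strand: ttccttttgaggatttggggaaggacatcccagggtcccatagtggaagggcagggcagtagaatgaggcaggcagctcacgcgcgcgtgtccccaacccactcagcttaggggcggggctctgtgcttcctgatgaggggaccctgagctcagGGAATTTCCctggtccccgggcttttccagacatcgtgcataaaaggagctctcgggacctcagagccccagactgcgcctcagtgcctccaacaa
Il6, chr5:30012864-30013113, + strand: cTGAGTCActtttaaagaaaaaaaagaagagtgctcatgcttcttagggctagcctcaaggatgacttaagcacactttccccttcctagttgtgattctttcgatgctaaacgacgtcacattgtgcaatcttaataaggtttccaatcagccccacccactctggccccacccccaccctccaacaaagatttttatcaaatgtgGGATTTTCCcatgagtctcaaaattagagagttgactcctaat
Mmp3, chr9:7445572-7445821, + strand: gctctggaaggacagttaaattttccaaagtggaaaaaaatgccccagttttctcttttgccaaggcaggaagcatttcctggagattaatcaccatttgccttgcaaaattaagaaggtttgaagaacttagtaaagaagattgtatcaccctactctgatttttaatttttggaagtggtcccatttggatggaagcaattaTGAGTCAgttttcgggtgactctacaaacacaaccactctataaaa
Mmp10, chr9:7502092-7502341, + strand: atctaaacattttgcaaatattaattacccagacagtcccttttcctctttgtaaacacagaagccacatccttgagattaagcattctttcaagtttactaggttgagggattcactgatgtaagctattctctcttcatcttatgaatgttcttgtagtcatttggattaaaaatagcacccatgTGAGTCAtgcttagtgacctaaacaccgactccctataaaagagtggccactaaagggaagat
Mmp13, chr9:7272264-7272513, + strand: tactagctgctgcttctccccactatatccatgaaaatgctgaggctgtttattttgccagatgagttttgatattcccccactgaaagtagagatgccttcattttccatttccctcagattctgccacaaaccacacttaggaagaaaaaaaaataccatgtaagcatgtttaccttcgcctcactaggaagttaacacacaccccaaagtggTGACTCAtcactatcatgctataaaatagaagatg

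Cxcl1 and Cxcl2 share the same 9 bases, and in Mmp13 the AP-1 match is on the opposite strand. Of the 120 rises 97 had a sequence in the RefSeq table. One of the NF-kB forms was found in 5 of them (5.15%), namely Cxcl1, Cxcl2, Il6, Acot9 and Tnfaip2, in 0 of the 30 falls with a sequence and in 157 of 7320 tested genes with a sequence (2.14%). Over all 27025 promoters of the table the share was 1.85%. The AP-1 motif was found in 8 of the 97 (8.25%), the 4 printed here and Cd68, Il11, Il1rn and Sprr1a, in 2 of the 30 falls, Dclk1 and Nmu, and in 320 of 7320 tested genes (4.37%). Over all promoters its share was 5.16%. A direct repeat of AGGTCA with 1 base between, the form that PPAR and retinoid X receptor pairs bind, was found in 0 of the 97 rises and 0 of the 30 falls, and in 2 of 7320 tested genes. These counts describe letters in a short window only.

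Other rises were of genes known from epithelium, stroma and vessels as well as from immune cells. Ptgs2, the inducible cyclooxygenase that makes prostaglandins, gave 10.62, 11.44, 11.82 and 14.02 at day 7 and 7.59, 7.33 and 8.19 at day 0, a rise of 4.27 ± 0.75 with an adjusted p of 0.00513. It was 1 of 12 prostaglandin and leukotriene genes, and no other was called. Ereg, epiregulin, a ligand of the EGF receptor, gave 11.44, 10.73, 13.73 and 14.21 at day 7 and 7.88, 9.41 and 8.93 at day 0 (log2 fold change 3.79, adjusted p 0.011), and without day 0 replicate 1 its call was lost. Epgn, epigen, another ligand of that receptor, rose by 3.06 (adjusted p 0.00411), and these 2 were the calls among 12 genes of the receptor and its ligands. Steap4, a metalloreductase, gave 10.46, 10.08, 10.55 and 11.14 at day 7 and 8.44, 7.40 and 7.38 at day 0 (log2 fold change 2.82, adjusted p 0.0032). Vcam1, an adhesion molecule that binds leukocytes on endothelium, rose by 2.34 (adjusted p 0.02) as the only called gene of 15 endothelial genes, whose median was 0.64. It lost its call without day 7 replicate 4 and without day 0 replicate 2 or 3. Ly6d and Sprr1a, genes of stratified epithelium, rose by 5.75 (adjusted p 0.046) and 2.74 (adjusted p 0.0462). The summed signal of 21 such genes was 9.62 to 12.23 at day 7 and 8.54 to 8.93 at day 0. Keratins of stratified epithelium, Krt5, Krt14, Krt6a, Krt13 and Krt4, were under 4 on all 7 arrays, and each of the calls of Ly6d and Sprr1a held in only 1 of the 7 fits without 1 array.

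Single members of other lists also rose. Across all genes tested 1.75% were called, so a single call, here or in other lists, is not read as a result about its list. The prolyl hydroxylase Egln3 rose by 2.09 (adjusted p 0.0267), the only call of 27 glycolysis and hypoxia genes. Nfil3, a repressor of clock output genes, rose by 3.45 (adjusted p 0.0144), the only call of 14 clock genes. Asns, asparagine synthetase, rose by 0.97 (adjusted p 0.0209), the only call of 22 genes of the unfolded protein response, whose median was -0.05. Apaf1, the scaffold of the apoptosome, rose by 1.02 (adjusted p 0.0336), the only call of 34 genes of the p53 pathway. Prdm1, a repressor that drives plasma cell differentiation and is also expressed in epithelium, rose by 1.66 (adjusted p 0.0367), while the other 7 B and plasma cell genes tested were not called. Cybb, the catalytic subunit of the phagocyte NADPH oxidase, rose by 2.06 (adjusted p 0.0432). Each of these calls was lost without day 7 replicate 4 and without day 0 replicate 3.

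Among the 39 falls, Wnt target and crypt base genes were the list with the most calls, 4 of 18 tested, with none higher and a list median of -0.48. Ascl2, the transcription factor of intestinal stem cells, gave 4.96, 3.76, 3.35 and 3.33 at day 7 and 5.63, 6.55 and 5.63 at day 0, and fell by 2.09 ± 0.42 on the log2 scale (adjusted p 0.0136). Tnfrsf19, a receptor expressed in stem cells, gave 3.72, 3.98, 3.99 and 3.59 at day 7 and 5.37, 7.40 and 7.24 at day 0, and fell by 2.85 ± 0.52 (adjusted p 0.00721). Axin2, a feedback inhibitor that Wnt signaling induces, gave 6.07, 5.92, 4.88 and 4.95 at day 7 and 6.65, 6.88 and 6.92 at day 0, and fell by 1.36 ± 0.28 (adjusted p 0.0164). Ephb3, an ephrin receptor that positions cells along the crypt, fell by 1.02 (adjusted p 0.0483), with 4.01, 3.78, 2.94 and 3.18 at day 7 and 4.59, 4.60 and 4.32 at day 0. These values are low, and the Ephb3 call held in 7 of the 34 alternative settings that tested it. The day 7 arrays of all 4 genes were below their day 0 arrays, and Ascl2 and Axin2 were lower on replicates 3 and 4 than on replicate 1. Other members had log2 fold changes of -0.53 for the stem cell receptor Lgr5, -0.31 for Sox9, -0.12 for Myc and 1.16 for Ccnd1, none of them called. The 4 calls were all lost without day 0 replicate 2, 1 was left without day 0 replicate 3, and Ascl2, Axin2 and Ephb3 also lost theirs without day 7 replicate 4.

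The largest falls came from several lists or none. Slc34a2, a sodium phosphate cotransporter, gave 3.68, 4.00, 5.90 and 2.75 at day 7 and 7.16, 8.90 and 8.29 at day 0, and fell by 4.03 ± 1.00 (adjusted p 0.046). Hhip, a membrane protein that binds and sequesters hedgehog ligands, gave 4.45, 5.24, 4.08 and 3.02 at day 7 and 7.56, 7.36 and 7.54 at day 0, and fell by 3.29 ± 0.67 (adjusted p 0.0144). Its 4 probe sets had the same sign, and it was the only call of 21 genes of hedgehog and BMP signaling, lost without day 7 replicate 4 or any day 0 array. Tppp and Tppp3, which promote tubulin polymerization, fell by 3.33 (adjusted p 0.0432) and 2.37 (adjusted p 0.0241). Nmu, the neuropeptide neuromedin U, fell by 2.70 (adjusted p 0.0222), and Retreg1, a receptor for autophagy of the endoplasmic reticulum, fell by 2.15 (adjusted p 0.0218). Fgfr3, a fibroblast growth factor receptor, fell by 1.83 (adjusted p 0.0146), but its 2 probe sets differed in sign. Spsb4, a substrate adaptor of a ubiquitin ligase, gave 4.17, 4.61, 4.19 and 3.91 at day 7 and 6.21, 5.95 and 6.01 at day 0, and fell by 1.83 ± 0.29 (adjusted p 0.00274). With Rassf9 and Ephx1 it was 1 of the 3 falls that kept their calls without each of the 7 arrays. The remaining named falls were Sh3bgr and Fam221a, which fell by 2.07 and 1.85. Only 1 of the 3 probe sets of Sh3bgr had this sign, and its call held in 1 of the 7 fits that left out 1 array. Probe sets of a gene differed more often in sign among the falls. Of 23 falls with several probe sets 13 had all of them below 0, whereas 53 of 55 such rises had all above 0.

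**Figure D3:**
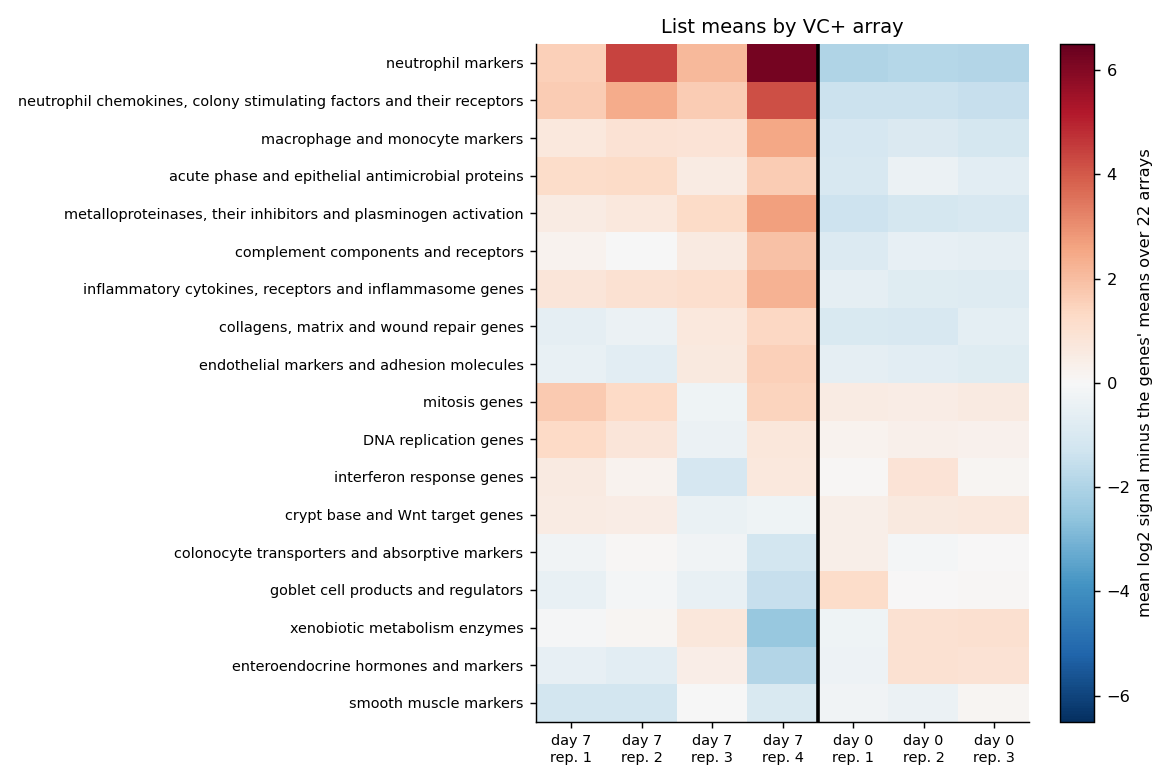
Mean log2 signal of the tested members of 18 gene lists on each VC+ array, day 7 on the left and day 0 on the right, as the difference from each gene's mean over 22 arrays (colour scale). Neutrophil markers ran from 1.52 to 6.21 at day 7 and -1.95 to -1.85 at day 0, and replicate 4 of day 7 was the highest array for neutrophil and macrophage markers and the lowest for xenobiotic enzymes.

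No marker of differentiated colonocytes, goblet cells or enteroendocrine cells passed the test. Of 34 colonocyte genes none was called, with a median of -0.45, and day 7 was below day 0 on all arrays for 5. No colonocyte gene had day 7 above day 0 on all arrays, so 5 of 34 is also the count in either direction. Over all genes tested the share in either direction was 18.2%, and the share below day 0 alone is not given. The 5 are therefore not read as a fall of colonocyte genes, nor as showing that there was none. Of the 34 values 22 were below 0, the lowest being -3.49 for the transporter Slc30a10. The brush border and transport genes Vil1, Krt20, Slc26a3 and Car1, picked after their values were seen, had log2 fold changes of 0.14, 0.20, 0.02 and -0.09. Of 23 goblet cell genes none was called, with a median of -0.37. Within that list the secreted proteins Itln1 and Clca1 had log2 fold changes of -4.74 and -3.91 with separate groups, while Tff3 and Zg16 had -0.03 and 0.02. None of 14 enteroendocrine genes was called, with a median of -1.24 and 12 of the 14 values below 0. Among 30 enzymes of xenobiotic metabolism 27 values were below 0, the median was -1.14, and 1 was called, the glutathione transferase Gstt1, which gave 7.52, 7.52, 8.18 and 7.41 at day 7 and 8.59, 9.07 and 8.99 at day 0 (log2 fold change -1.23, adjusted p 0.0237). No enzyme was called without day 7 replicate 1, 2 or 4 or without day 0 replicate 2 or 3, and 2 were called without day 7 replicate 3. Array means of the xenobiotic list were -0.10, 0.14, 0.74 and -2.48 at day 7, against -0.29, 1.00 and 1.02 at day 0. The low value belongs to replicate 4, and the value of day 0 replicate 1 lay within the range of the day 7 arrays. Of 20 genes of claudins, tight junctions and adhesion none was called, with a median of -0.07.

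Cell cycle genes were not called either, although nearly all had positive values. Of 31 mitosis genes 30 were above 0, with a median of 0.50, and the array means were 1.70, 1.28, -0.29 and 1.45 at day 7, against 0.51, 0.50 and 0.59 at day 0. Of 35 DNA replication genes 31 were above 0, with a median of 0.34. Replicate 3 was below the day 0 arrays in both lists, whereas the other 3 day 7 arrays were above them. Tpx2, a spindle assembly factor and the mitosis gene with the lowest p, gave 7.24, 6.87, 5.19 and 7.49 at day 7 and 5.48, 5.30 and 5.61 at day 0 (adjusted p 0.374). For Tpx2 2 of 4 probe sets had this sign.

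Lipid genes that PPAR receptors act on did not pass the test. Of 37 genes of PPAR receptors, their targets and fatty acid oxidation none was called, and the median was -0.08. Plin2, a coat protein of lipid droplets, gave 10.32, 9.80, 10.07 and 10.76 at day 7 and 10.85, 10.01 and 9.91 at day 0 (log2 fold change -0.02, adjusted p 0.989). Fabp2, the intestinal fatty acid binding protein, gave 12.58, 12.45, 12.15 and 9.56 at day 7 and 12.14, 12.82 and 13.23 at day 0 (log2 fold change -1.05, adjusted p 0.689). For both genes the groups overlapped, and for Fabp2 replicate 4 alone was below all other arrays. Pparg itself had a log2 fold change of 0.16 ± 0.79, with replicates 1 and 2 above and replicates 3 and 4 below day 0 replicate 3. Angptl4, a secreted lipase inhibitor and the member with the lowest p, had 7.83, 6.32, 8.08 and 10.10 at day 7 and 4.93, 5.14 and 5.35 at day 0 (adjusted p 0.106).

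In the lysosome list 3 of 47 genes rose, and the median was -0.03. These were Cd68, the metal transporter Slc11a1 of phagosomes (2.30, adjusted p 0.0315) and the β-glucuronidase Gusb (1.07, adjusted p 0.028), of which Cd68 and Slc11a1 also stand in the macrophage list. None of the 3 was called without day 7 replicate 4 or without any 1 of the day 0 arrays, and 1 was called without day 7 replicate 2. Lamp1 and Lamp2, the main glycoproteins of the lysosomal membrane, had log2 fold changes of -0.17 ± 0.18 and -0.08 ± 0.30 (SE), with adjusted p of 0.749 and 0.951. Presentation and interferon genes were also not called. The medians were 0.53 over 10 genes of MHC class II presentation, 0.40 over 13 genes of MHC class I presentation and -0.54 over 26 interferon response genes. Interferon genes differed among the day 7 arrays, with array means of 0.56, 0.22, -1.08 and 0.66, against 0.07, 0.91 and 0.13 at day 0. Of 15 complement genes none was called although 11 had day 7 arrays above all day 0 arrays, with a median of 1.44. The share without overlap, in either direction, was 18.2% over all genes tested. C1qb, a chain of the first complement component, came closest, with an adjusted p of 0.0888. Smooth muscle markers had a median of -0.73 over 23 genes, T cell markers -0.46 over 9 and neuronal and glial markers -0.34 over 14, with no calls. For lists that hold no call this does not show that their genes were equal at both days.

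Most of the 120 rises were larger between days 2 and 7 than between days 0 and 2. Against day 0, 5 genes were called at day 2 in VC+ arrays, and none of the 120 rises was among them. Against day 2, 690 genes were called at day 7, including 96 of the 120 rises. The median log2 fold change of those 120 genes was 0.44 at day 2 against day 0 and 1.90 at day 7 against day 2. Because both comparisons share arrays with the comparison that chose the genes, these medians are a description. In 11 of the 120 genes the difference by day 2 was the larger, as in Cd68 (2.18 at day 2 against day 0 and 0.72 at day 7 against day 2) and Col18a1 (1.99 and 1.53 in the same order). Mmp3 had a stepwise pattern, with 2.66, 2.76 and 2.54 at day 0, 5.35, 5.90, 6.45, 5.77 and 5.33 at day 2 and 9.62, 9.80, 9.64 and 13.68 at day 7, and its day 2 arrays lay apart from both other groups. S100a9 was at background on 4 of 5 arrays at day 2, with 2.78, 5.21, 2.85, 2.83 and 2.90. Il6 was at background on all of them, with 2.11, 2.13, 2.15, 2.14 and 2.12.

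Of 18 crypt genes 3 had fallen by day 2. Of the 5 genes called at day 2 against day 0, 4 are among the 39 falls, namely Ascl2, Axin2, Ephb3 and Ikzf3, the last a transcription factor of lymphocytes. The other was Insig1, a sterol-induced brake on cholesterol synthesis. Ascl2 gave 5.63, 6.55 and 5.63 at day 0, 3.32, 3.33, 3.36, 3.38 and 3.29 at day 2 and 4.96, 3.76, 3.35 and 3.33 at day 7, so that all 5 day 2 arrays were under 4. It fell by 2.60 at day 2 against day 0 (adjusted p 0.0146) and differed by 0.51 at day 7 against day 2 (adjusted p 0.436). Axin2 gave 6.65, 6.88 and 6.92 at day 0, 4.87, 5.04, 4.90, 5.18 and 4.81 at day 2 and 6.07, 5.92, 4.88 and 4.95 at day 7, and fell by 1.86 at day 2 (adjusted p 0.0132). Ephb3 fell by 1.38 at day 2 (adjusted p 0.0411). For Tnfrsf19 the log2 fold change at day 2 was -1.34 (adjusted p 0.595).

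**Figure D4:**
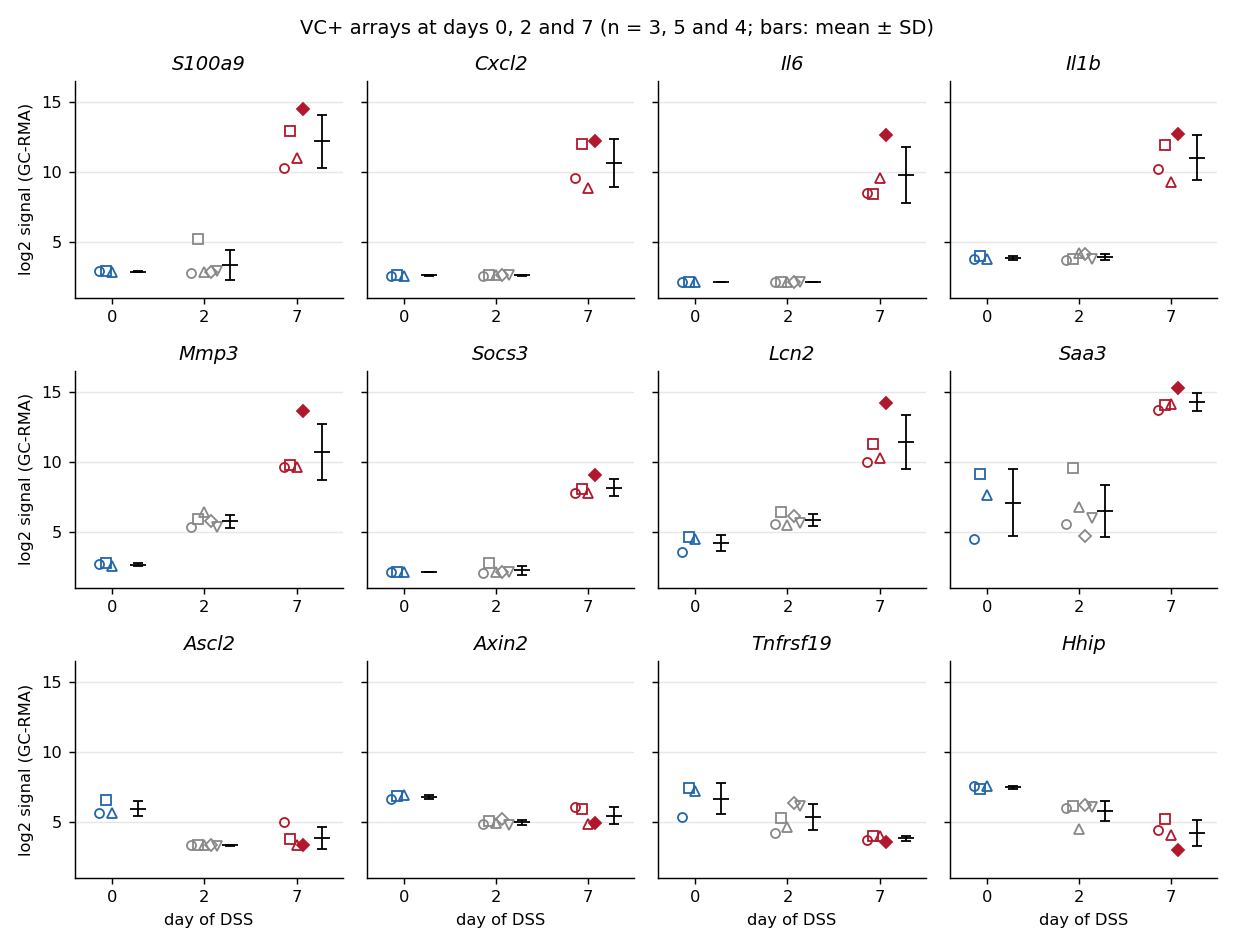
Log2 signal of 12 named genes on the VC+ arrays before DSS (day 0) and on day 2 and day 7. Each symbol is 1 array and the bars are mean ± SD (n = 3, 5 and 4). The 8 genes of the upper rows have their highest mean at day 7, Mmp3 lies at 5.33 to 6.45 at day 2, and Ascl2 and Axin2 are already low at day 2.

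The same comparison was made in VC- arrays to ask whether the VC+ response differed. In VC- arrays 963 of 9097 genes, or 10.6%, passed the test at day 7 against day 0, 503 higher and 460 lower. No gene passed the test for a difference between the 2 responses in limma, with 771 genes at an unadjusted p under 0.05. The lowest adjusted p for it over the 159 genes was 0.58. A larger number of calls in VC- arrays is therefore not shown to be a larger response in any single gene, and the VC- arrays were uneven. When 1 array was left out, the VC- count was 2599, 384, 433 and 496 for day 7 replicates 1 to 4 and 520, 240 and 127 for day 0 replicates 1 to 3. The test of the difference called 17 genes when VC- day 7 replicate 1 was dropped. It called 2 when VC+ day 7 replicate 3 was dropped, and likewise 2 for VC- day 0 replicate 2. Of the 120 VC+ rises 118 were also above 0 in VC- arrays and 89 were called there, with a median of 2.46. Of the 39 falls 38 were below 0 in VC- arrays and 19 were called there. Il6, for instance, had log2 fold changes of 7.63 in VC+ and 7.33 in VC- arrays, and the difference of the responses was 0.31 ± 1.34 (SE).

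Some genes called in VC+ arrays had smaller values in VC- arrays. Sprr1a had log2 fold changes of 2.74 in VC+ and -0.23 in VC- arrays, with a difference of 2.97 ± 0.96 (unadjusted p = 0.00605 in limma, adjusted p 0.58). Epgn had 3.06 in VC+ and 1.02 in VC- arrays, with a difference of 2.04 ± 0.73 (unadjusted p = 0.0115 in limma, adjusted p 0.58). Asns had 0.97 in VC+ and 0.03 in VC- arrays, with a difference of 0.94 ± 0.30 (unadjusted p = 0.00495 in limma, adjusted p 0.58). None of these differences passed the adjustment over 9097 genes. Apol6, an apolipoprotein L gene, and Ikzf3, both picked after their values were seen, also had opposite signs in the 2 genotypes, with 2.73 in VC+ and -0.68 in VC- arrays for Apol6 and -1.66 in VC+ and 0.39 in VC- arrays for Ikzf3 (adjusted p of the difference 0.58 and 0.58). Only 1 of the 3 probe sets of Ikzf3 had its sign.

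Of the lists, mitosis genes had the largest median difference between the responses, 2.15 over 31 genes. Their median fold change was 0.50 in VC+ and -1.83 in VC- arrays, and over 35 DNA replication genes it was 0.34 in VC+ and -1.10 in VC- arrays, where 12 were called lower. The VC- array means of the mitosis list were uneven, with 1.22, -2.07, -2.02 and -0.78 at day 7, against 0.74, 0.64 and 0.91 at day 0. Day 7 replicate 1 thus lay above all VC- day 0 arrays. Interferon genes had medians of -0.54 in VC+ and -1.61 in VC- arrays, goblet cell genes medians of -0.37 in VC+ and -1.60 in VC- arrays, and endothelial genes 0.64 in VC+ and 1.95 in VC- arrays. Neutrophil markers had medians of 4.45 in VC+ and 4.25 in VC- arrays, but the median of the differences gene by gene was 1.01 over 7 genes. Macrophage markers had medians of 2.30 in VC+ and 2.36 in VC- arrays. Lysosomal genes had -0.03 in VC+ and 0.61 in VC- arrays, where 15 of 47 were called higher. None of the members of these lists passed the test of the difference between genotypes, and medians over genes carry no test here. Of the genes that the study examined, Plin2 differed between the responses by -1.12 ± 0.42 (adjusted p 0.58) and Fabp2 by 1.67 ± 1.28 (adjusted p 0.675).

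**Figure D5:**
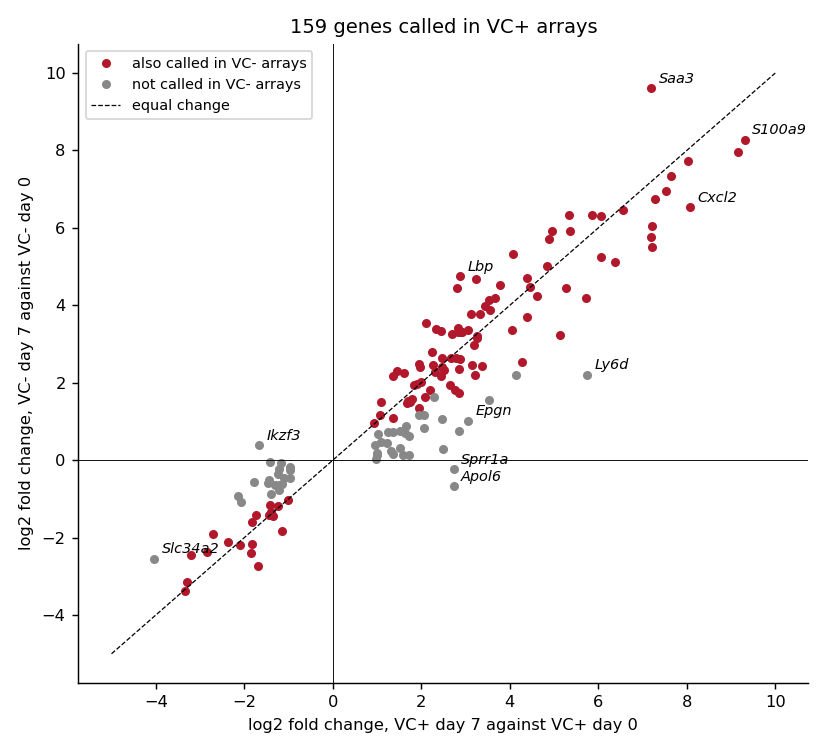
Log2 fold changes of day 7 against day 0 for the 159 genes called in VC+ arrays, in VC+ arrays (horizontal axis) and in VC- arrays (vertical axis). Each point is 1 gene, red where it was also called in VC- arrays. Because VC+ values chose the genes, points below the dashed line of equal change are no sign of a larger VC+ response. S100a9 lies at 9.31 in VC+ and 8.28 in VC- arrays.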

How the data were processed

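RNA of colonic mucosa was hybridised to 22 Affymetrix mouse expression arrays. The authors normalized the arrays by GC-RMA and deposited log2 values, and the submitters' processing notes name R 2.10.1, GCRMA and limma. The main results use these values as deposited. Of 45101 probe sets, 35890 are paired with a gene in the platform annotation. The 932 with several symbols and the 9211 that are not listed were left out, and for each of 18194 genes the probe set whose interquartile range over the 22 arrays was largest stands for the gene. The 9097 genes in the upper 50% of that range were tested in a linear model (R 4.3.3, limma 3.58.1) with a mean for each of 6 groups and moderated variances, and p-values were two-sided with Benjamini-Hochberg adjustment over the 9097 genes. An adjusted p under 0.05 is called.

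Named genes were the 12 largest rises and 12 largest falls whose arrays did not overlap, up to 4 called members of each of 47 gene lists by absolute log2 fold change (or, where a list held no call, its member with the lowest p), and the genes that the study examined. Other list members given as examples were picked after their values were seen. Members and lists were chosen with earlier results of these data known. Alternatives were the filter, the probe set, normalization, array weights, a variance trend, the arrays fitted, a replicate block, Hoxb13 as a covariate and leaving out each array. The fit was tested on simulated data. Array number limits the precision, and the depth of a signal is not counted on arrays. Promoter sequences are those of RefSeq on GRCm38.p6, matched by symbol, as the 250 bases before each start.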

Additional observations from a re-analysis of the deposited data

Results flagged for a closer look

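In 178 groups of named genes tested for an array that stands apart, 17 arrays were found. Chance flags about 1 in 20 groups. At day 7 replicate 4 was that array for 4 genes. Mmp3 gave 13.68 there and 9.62 to 9.80 on the others, Mmp13 gave 14.45 and 10.40 to 10.50, Cd3g, a chain of the T cell receptor complex, gave 4.04 and 3.23 to 3.31, and Fabp2 gave 9.56 and 12.15 to 12.58. Gstt1 gave 8.18 on day 7 replicate 3 and 7.41 to 7.52 on the others.

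At day 2 replicate 2 was the array for 5 genes. S100a9 gave 5.21 there and 2.78 to 2.90 on the others, Cxcl1 gave 3.78 and 3.54 to 3.61, Csf2rb gave 4.09 and 2.87 to 3.20, Socs3 gave 2.75 and 2.09 to 2.12, and Ang4 gave 9.48 and 13.51 to 14.79. On replicate 1 Fpr2 gave 2.51, with 2.36 to 2.38 on the others, and Ccl8 gave 11.38, with 8.37 to 9.03 on the others. On replicate 3 Hhip gave 4.50, with 5.98 to 6.18 on the others, and Epgn gave 2.37, with 2.03 to 2.07 on the others. On replicate 4 Cd68 gave 6.62, with 7.57 to 7.88 on the others, and Asns gave 10.24, with 9.80 to 9.91 on the others. On replicate 5 Gusb gave 8.88, with 8.46 to 8.58 on the others.

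Slc30a10, a manganese transporter, had values of opposite sign in the 2 genotypes, neither of which was called (adjusted p 0.221 in VC+ and 0.362 in VC- arrays). Its log2 fold change was -3.49 in VC+ and 1.71 in VC- arrays, a difference of -5.20 with an unadjusted p of 0.0105 in limma and an adjusted p of 0.58. In VC- arrays it gave 3.33, 3.12, 8.59 and 4.22 at day 7 and 3.34, 3.31 and 2.66 at day 0, so that 1 array carried the VC- value.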

How the results depend on the processing

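The VC+ count of 159 was 80 with no variance filter, 1509 with array weights, 46 with the 7 compared arrays alone, 267 with the 12 VC+ arrays alone, 75 with a replicate block, 2 without arrays with Xist signal and 30 without the VC+ arrays with Hoxb13 signal, the last chosen after seeing the data. It ran from 53 to 353 when 1 array was left out. The count for the difference of the responses, 0, was 1 with no variance filter, 1 with Hoxb13 as a covariate, 792 with array weights and 0 to 17 when 1 array was left out. The VC- count of 963 was 580 with no variance filter, 2223 with array weights, 3 with the compared arrays alone, 370 with a replicate block, 525 with Hoxb13 as a covariate, 177 without arrays with Prss2 signal, 48 without arrays with Xist signal and 127 to 2599 when 1 array was left out. No called named gene changed direction. Of 60 such genes, 34 kept their calls with no variance filter, 32 with the block, 23 with the compared arrays alone, 15 without the VC+ arrays with Hoxb13 signal and 1 without arrays with Xist signal. Genes that were not called changed sign as follows. Pparg was -0.16 with Hoxb13 as a covariate, -0.35 and -0.26 when VC+ day 7 replicates 1 and 2 were dropped, and -0.35 to 1.01 over all fits that dropped 1 array. Plin2 was 0.063 with array weights, 0.053 with Hoxb13 as a covariate, 0.10 without the VC+ arrays with Hoxb13 signal, 0.28 when VC+ day 0 replicate 1 was dropped, 0.12 and 0.04 for VC+ day 7 replicates 2 and 3, and -0.19 to 0.28 over all such fits. Lamp2 was 0.41 with the brightest probe set, 0.058 without arrays with Xist signal, 0.01 and 0.058 when VC+ day 0 replicates 2 and 3 were dropped, 0.02 for VC+ day 7 replicate 1, and -0.31 to 0.058 over all such fits. The cause was not tested. In the replicate block the same number stands for no known animal or batch. Deviations of same-numbered VC+ day 7 and day 0 arrays correlated over 0.1 in 1 of 3 pairs, and those of other such pairs in 2 of 9. Over all groups it was 18 of 48 same-numbered pairs (mean correlation 0.084) and 36 of 152 other pairs (mean -0.027). With 3 pairs in the main comparison, whether the numbers pair the arrays cannot be told.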
